A study of Mus musculus with 20 samples.

Results

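The 35 genes described here are genes of macrophages whose RNA was present in libraries of CD31-sorted tumour cells. They were chosen by name, as a list of macrophage lineage, complement, Fc receptor, lysosomal, activation state and monocyte recruitment genes, from 46983 gene identifiers in the deposited tables. Each of the 35 matched 1 identifier, and 34 of them had enough counts to be among the 14875 genes tested. Arg1, with 18 counts over all libraries, was described by its levels only.

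Macrophages are phagocytes that live in tissues and enter tumours as blood monocytes, and the receptor Csf1r keeps them alive. They take up particles through Fc and scavenger receptors, digest them in lysosomes with cathepsins, and make the C1q chains that start the classical complement pathway. In mouse macrophages Nos2 is classically linked to activation by interferon-gamma and bacterial products, and Arg1 and Mrc1 to activation by interleukin-4.

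The study sequenced RNA of CD31-positive cells from tumours of E0771, a mouse mammary carcinoma line grown in the fat pad of C57BL/6J hosts until the tumours measured 500 mm3. CD31, the product of Pecam1, marks endothelium but is carried by some blood cells too. Cells were enriched with CD31 microbeads and then sorted by flow cytometry. The 20 libraries fall into 6 host groups. Per the labels, CD4 T cells are present in WT (wild type, n = 4), CD8KO (n = 3) and Tie2Cre (n = 3) hosts and deficient in CD4KO (n = 3), TCRKO (n = 3) and Tie2Cre_H2Abf (n = 4) hosts. The Tie2Cre recombinase acts in endothelium and in blood-derived cells alike, and Tie2Cre_H2Abf hosts combine it with a floxed allele of the MHC class II gene H2-Ab1, so macrophages of these hosts can lose H2-Ab1 as well. The ages of the hosts are not given, and the labels do not say whether libraries are separate animals. The p-values below therefore measure the spread between these samples only.

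Total counts per library ran from 1543847 to 11478902, and a single abundant gene took between 9.89% and 82.1% of a library. Protein-coding genes held 12.8% to 81.0% of the counts, with the highest share in CD8KO_9752. A pair of libraries, WT_9771 and Tie2Cre_9501, was rich in satellite counts in an earlier analysis of these data and was the shallowest, so results were also computed without them. Pecam1 was between 435 and 1377 CPM (counts per 1e6 on TMM-scaled library sizes), and 12 endothelial genes summed to between 2287 and 7001 CPM. Markers of other cells were far below this. The summed level was 0 to 9.97 CPM for 11 T and NK cell genes, 0 to 15.9 CPM for 5 B cell genes, 0 to 16.8 CPM for 6 platelet genes and 0 to 18.2 CPM for 6 tumour epithelial genes. Neutrophil markers summed to between 0.757 and 94.3 CPM, nearly all of it Csf3r, since S100a9 and Retnlg had no count in any library and S100a8 had counts in 2 libraries (it was at 0 in 18). Dendritic cell markers summed to between 5.24 and 97.1 CPM. Zbtb46 had by far the highest median of these 8 genes, 19.2 CPM (1.75 to 89.9), and the next was Clec9a at 1.67 CPM. The dendritic markers Cd209a and Itgae were at 0 in 15 libraries, Flt3 in 16 and Xcr1 in 12.

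To give each library 1 value, 12 genes that mark macrophages were added up and are called the macrophage core: Csf1r, Adgre1, Cd68, Tyrobp, Fcer1g, Fcgr1, Fcgr3, Laptm5, Mpeg1, Ms4a7, Cybb and Aif1. The core was detected in all 20 libraries, at 320 to 7988 counts. It made up between 0.0310% of protein-coding counts in WT_9771 (95% Wilson interval 0.0278% to 0.0346%, counting error only) and 0.432% in TCRKO_9765 (0.422% to 0.441%). In CPM it ran from 109 in Tie2Cre_H2Abf_9589 to 984 in TCRKO_9765, a 9.03-fold range, while the endothelial sum ranged 3.06-fold. In these bulk libraries fewer macrophages and less RNA per macrophage cannot be told apart.

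The core level in WT libraries was 771, 963, 263 (WT_9771) and 474 CPM. In CD4KO it was 702, 568 and 413 CPM, and in TCRKO 984, 308 and 700 CPM. All values of CD4KO lay within the WT range, and TCRKO_9766 was far below the other TCRKO libraries. The core in CD8KO was at 374, 341 and 283 CPM, in Tie2Cre at 178 (Tie2Cre_9501), 337 and 243 CPM, and in Tie2Cre_H2Abf at 125, 702, 229 and 109 CPM. Tie2Cre_H2Abf_9582 was thus above all Tie2Cre libraries, whereas Tie2Cre_H2Abf_9576 and Tie2Cre_H2Abf_9589 were the lowest of the series. Geometric means were 551 CPM in WT, 548 in CD4KO, 597 in TCRKO, 331 in CD8KO, 244 in Tie2Cre and 216 in Tie2Cre_H2Abf. On the log2 scale the spread within groups was 0.80 (pooled SD) and the SD of the 6 group means was 0.65. The first is a spread of single libraries and the second one of means over 3 or 4 libraries, and the core level was not tested between groups.

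**Figure D1:**
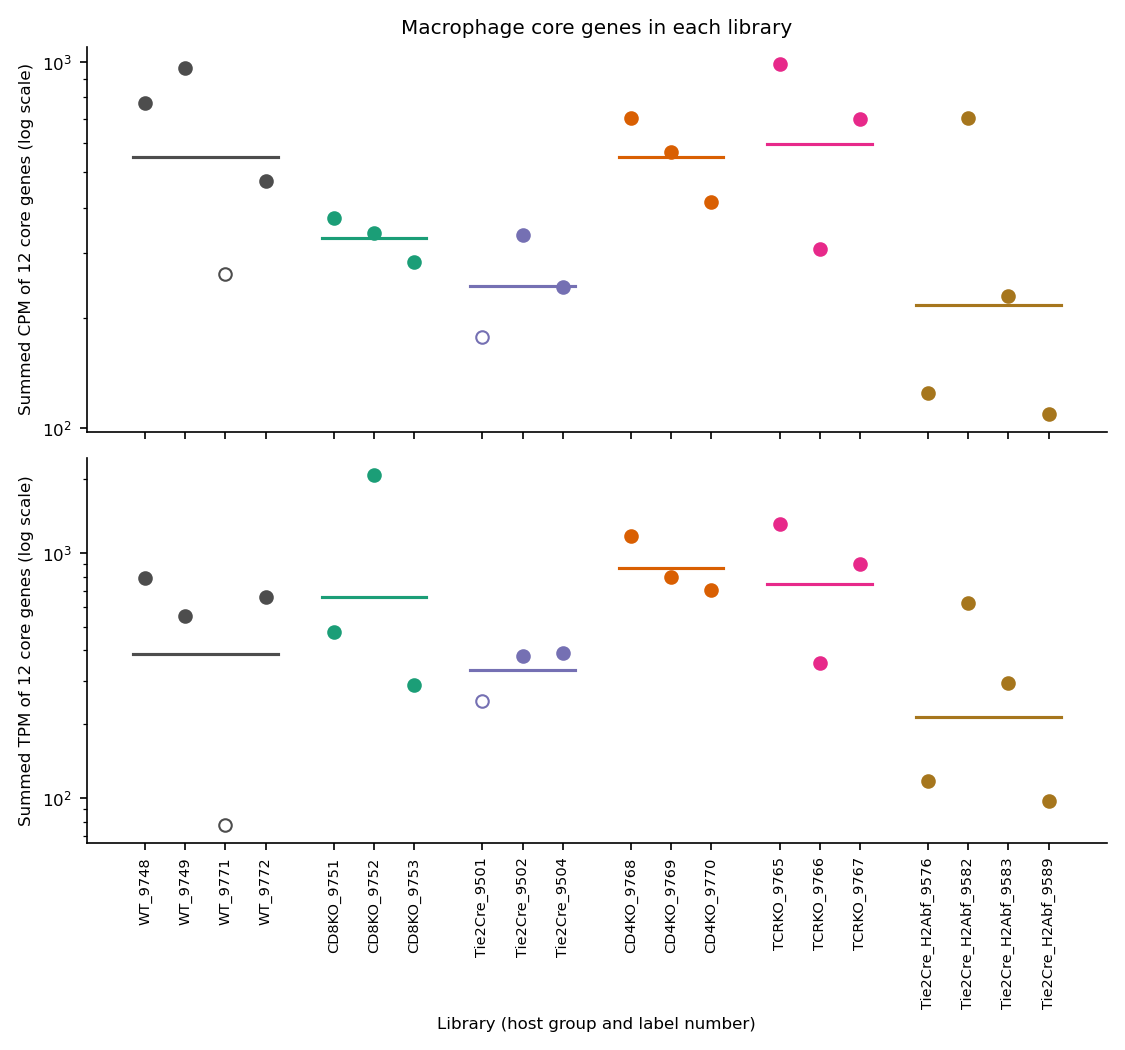
Summed level of the 12 macrophage core genes in each library, in CPM (top) and in the deposited TPM (bottom), both on a log axis. Each point is a library coloured by host group, lines are geometric means, and open points are WT_9771 and Tie2Cre_9501; in TPM CD8KO_9752 (2064) is the highest and WT_9771 (77.5) the lowest library.

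The order of the groups depended on the scale. In CPM the mean log2 core level of CD8KO was 0.74 below WT (value -0.74), and that of Tie2Cre was 1.17 below (value -1.17). In the deposited TPM, which are scaled to all RNA including the abundant gene, CD8KO was above WT by 0.77 on the log2 scale and Tie2Cre differed by -0.21. CD8KO_9752 and WT_9771 were the extremes of the TPM scale: without WT_9771 and Tie2Cre_9501 the TPM difference was -0.00 for CD8KO and -0.78 for Tie2Cre. As a share of protein-coding counts the differences were -0.21 for CD8KO and -0.77 for Tie2Cre. The share was 0.0310% in WT_9771 and 0.204% to 0.395% in the other WT libraries. WT_9771 thus lowered the WT mean and made both share differences smaller. CD4KO and TCRKO differed from WT by -0.01 and 0.11 in CPM and by 1.17 and 0.95 in TPM. Without WT_9771 and Tie2Cre_9501 these TPM differences were 0.40 and 0.18. The library numbers of Tie2Cre and Tie2Cre_H2Abf start with 95 and those of the other groups with 97, so a difference between Tie2Cre and WT cannot be told apart from a difference between these number series. Between CD4-deficient and CD4-competent hosts the core differed by 0.07 in CPM and 0.13 in TPM. These values pool both number series. For numbers starting with 97, geometric means in CPM were 548 (CD4KO) and 597 (TCRKO) against 551 (WT) and 331 (CD8KO). For those starting with 95 they were 216 (Tie2Cre_H2Abf) against 244 (Tie2Cre).

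Most lineage genes moved with the core from library to library. Over 20 libraries Spearman's rho with the core was 0.92 for Laptm5, a lysosomal membrane protein of blood cells, 0.85 for Mpeg1, the pore-forming perforin-2, and 0.82 for Cd68, a lysosomal glycoprotein. For a core gene, rho was taken with the sum of the other core genes. These 3 genes are part of the core sum. Of genes outside it, rho was 0.85 for Apoe, a lipid carrier, 0.84 for the protease Ctss, 0.82 for lysozyme (Lyz2), 0.77 for the integrin Itgam and 0.74 for Spi1, which encodes the transcription factor PU.1. For the 27 members whose mean reached 10 CPM, the median rho over 351 pairs was 0.52. All these libraries share depth and scaling differences, so the values are descriptions. The core itself had a rho of -0.22 with the endothelial sum (-0.44 over the 18 libraries other than WT_9771 and Tie2Cre_9501) and -0.13 with the total count. Its rho with the neutrophil sum, carried by Csf3r, was 0.66.

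The 10 other genes that followed the core most closely, of 4174 ranked by rho, were Cd300ld3 (0.93), Pld4 (0.93), C3ar1 (0.92), ENSMUSG00000089672 (0.91, no symbol in the annotation used), Cd300e (0.91), Itgb2 (0.90), Gm49339 (0.90), Sirpa (0.89), Myo1f (0.89) and Cd53 (0.89). C3ar1 is the receptor for complement fragment C3a, Itgb2 the beta chain that pairs with Itgam, and Sirpa the receptor for CD47. The median rho over the ranked genes was 0.01, and 61 genes reached 0.7.

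Among the lineage and signalling genes Laptm5 had the highest level per length, with a median of 114 CPM per kb of effective length, while Csf1r had a median of 8.83 CPM per kb and Adgre1 the lowest, 3.71 CPM per kb. Csf1r (GRCm38 chr18:61100598-61132149) overlaps Hmgxb3 on the other strand, which had 1358 counts over all libraries against 7650 for Csf1r, and the kit used does not mark strand. Spi1 was detected in 19 libraries (none of its counts fell in WT_9771) and reached 34.6 CPM in WT_9749. Adgre1, which encodes the macrophage antigen F4/80, ran from 1.51 CPM in WT_9772 to 32.9 CPM in WT_9749. It followed the core less closely than Laptm5 did (rho 0.41). Cd14, the co-receptor for lipopolysaccharide, was between 1.74 and 23.6 CPM with a rho of 0.32. Itgam, the alpha chain of the integrin Mac-1, was at 117 CPM in WT_9748 but at 2.84 CPM in WT_9772, so WT libraries alone spanned its whole range. Ptprc (CD45, the common leukocyte phosphatase) was at 1.88 to 69.7 CPM, and Aif1 (Iba1, an actin-binding protein) at 0.708 to 27.7 CPM.

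**Figure D2:**
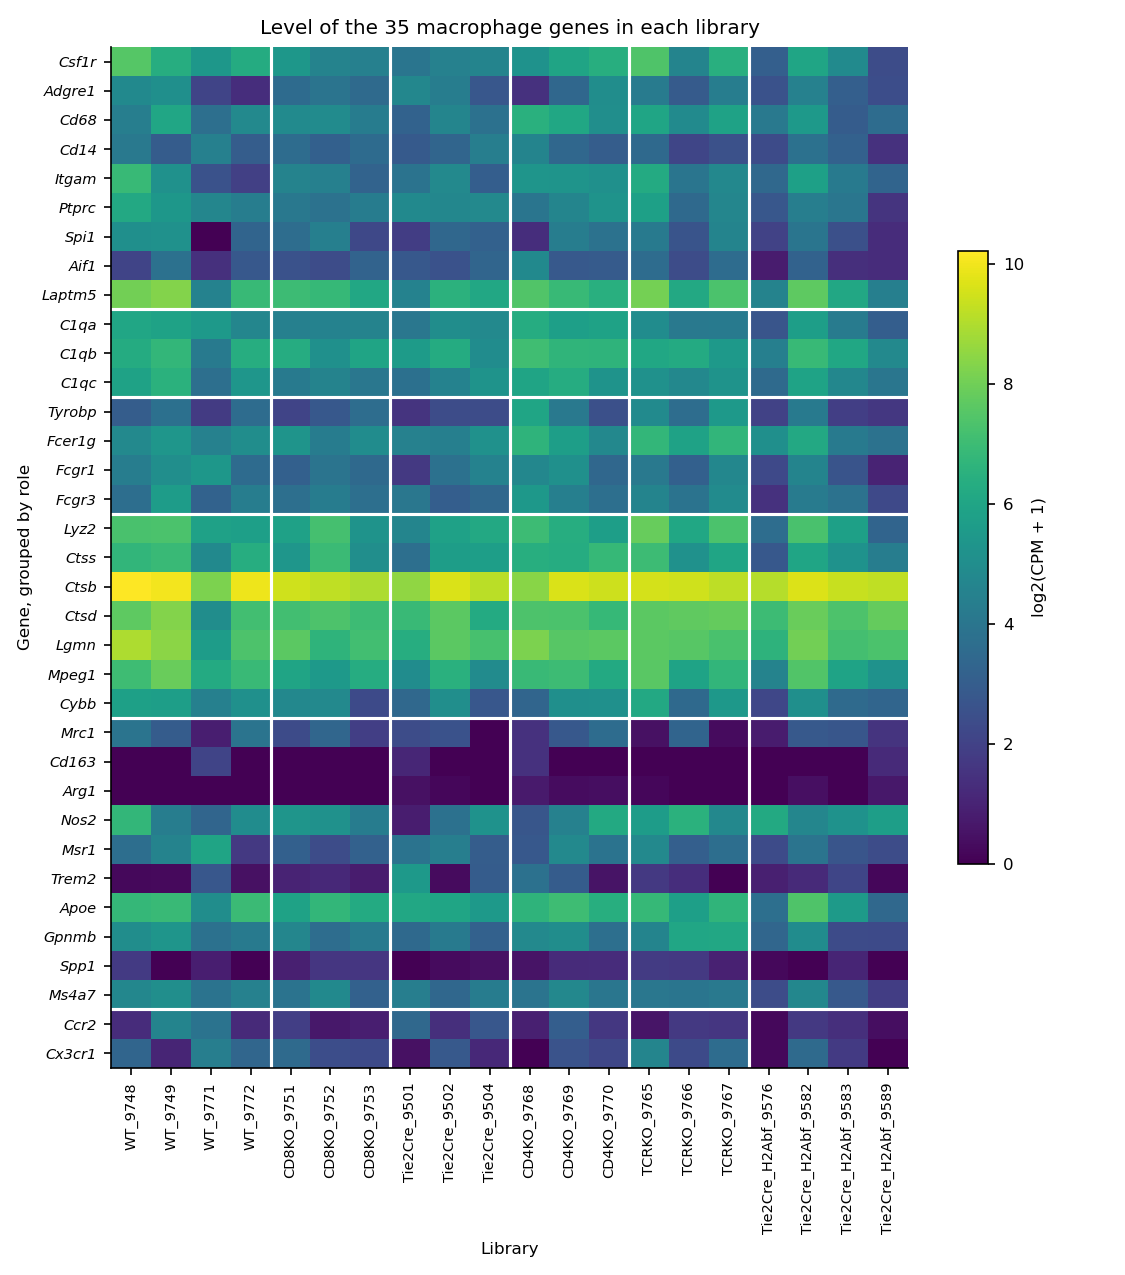
Levels of all 35 macrophage genes as log2(CPM + 1), one row per gene and one column per library, with white lines between roles and between host groups. Ctsb, Ctsd and Lgmn are bright in every library, Cd163 and Arg1 are near 0 throughout, and most rows are dark in Tie2Cre_H2Abf_9576 and Tie2Cre_H2Abf_9589.

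The lysosomal genes were the most abundant members. Per length, the proteases Ctsb (cathepsin B, median 155 CPM per kb), Ctsd (cathepsin D, 128) and Lgmn (legumain, 111) were among the 4 highest of all 35, the other being Laptm5. They followed the core less tightly than Ctss did: rho was 0.60 for Ctsb and 0.50 for Ctsd, against 0.80 for Lgmn and 0.84 for Ctss. Ctsb varied only 4.04-fold over the libraries, from 293 CPM in WT_9771 to 1184 CPM in WT_9748. Per 100 CPM of core Ctsb reached 551 in Tie2Cre_H2Abf_9589 and 431 in Tie2Cre_H2Abf_9576, the libraries with the lowest core, and was 47.3 in CD4KO_9768. Ctsb and Ctsd are made by most cell types, including endothelium, and the part of other cells in these levels was not tested. Cybb, the NADPH oxidase subunit gp91phox, was between 3.54 and 69.7 CPM. Lyz2 ran from 8.83 CPM in Tie2Cre_H2Abf_9589 to 227 CPM in TCRKO_9765.

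All 3 chains of C1q were detected in every library, and their sum ran from 36.1 CPM in Tie2Cre_H2Abf_9576 to 275 CPM in CD4KO_9768. The 3 chains are encoded side by side on chromosome 4 of GRCm38, C1qb at chr4:136880129-136886187, C1qc at chr4:136889804-136893065 and C1qa at chr4:136895917-136898803. Their levels moved together, with a rho of 0.78 between C1qb and C1qc, 0.72 between C1qa and C1qc and 0.66 between C1qa and C1qb over 20 libraries. Because these neighbours moved together, RefSeq promoter windows are shown for C1qb and C1qc. Those of Laptm5 and of Fcer1g, which is described below, are shown with them. Laptm5 had the highest rho of the 35 genes, taken with the other core genes. Each window runs from 250 bases before to 50 bases after the RefSeq start (GRCm38.p6), 5′ to 3′ on the strand of the gene. Capitals mark the 6 letters GAGGAA or their reverse complement TTCCTC, the core of sites bound by PU.1.
C1qb: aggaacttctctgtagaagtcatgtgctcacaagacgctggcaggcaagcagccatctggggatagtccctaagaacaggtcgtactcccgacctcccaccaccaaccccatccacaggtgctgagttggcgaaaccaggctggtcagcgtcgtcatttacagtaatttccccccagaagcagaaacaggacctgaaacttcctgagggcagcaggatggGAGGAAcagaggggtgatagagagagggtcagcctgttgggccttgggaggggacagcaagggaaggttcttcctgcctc
C1qc: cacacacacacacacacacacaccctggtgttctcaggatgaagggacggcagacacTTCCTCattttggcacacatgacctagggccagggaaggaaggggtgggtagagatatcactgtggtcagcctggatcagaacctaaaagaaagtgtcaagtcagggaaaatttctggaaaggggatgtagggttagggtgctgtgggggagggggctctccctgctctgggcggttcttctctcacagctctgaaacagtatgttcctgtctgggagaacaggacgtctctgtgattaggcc
Laptm5: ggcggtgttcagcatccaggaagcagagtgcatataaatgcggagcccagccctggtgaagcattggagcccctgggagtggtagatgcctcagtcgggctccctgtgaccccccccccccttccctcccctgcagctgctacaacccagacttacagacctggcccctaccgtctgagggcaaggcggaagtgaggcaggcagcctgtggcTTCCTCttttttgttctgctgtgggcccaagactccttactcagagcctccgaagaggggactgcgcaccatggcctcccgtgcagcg
Fcer1g: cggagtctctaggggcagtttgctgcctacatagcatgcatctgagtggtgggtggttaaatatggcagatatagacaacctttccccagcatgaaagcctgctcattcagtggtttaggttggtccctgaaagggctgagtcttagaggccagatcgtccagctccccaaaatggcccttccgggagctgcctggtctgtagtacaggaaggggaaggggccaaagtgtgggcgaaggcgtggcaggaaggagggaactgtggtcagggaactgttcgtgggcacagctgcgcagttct

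The C1qb window lies at chr4:136886151-136886450 and the C1qc window at chr4:136892865-136893164, both on the minus strand. That of Laptm5 is at chr4:130913066-130913365 on the plus strand, and that of Fcer1g at chr1:171234300-171234599 on the minus strand. The C1qb, C1qc and Laptm5 windows hold the letters once each, and the Fcer1g window does not hold them. In C1qc they are part of the longer GAGGAAGT (reverse complement ACTTCCTC). The RefSeq table held promoters of 25 of the 35 genes. On either strand, GAGGAA was found for 16 of these 25 (64%) and for 31.3% of 27025 genes in the table, and GAGGAAGT for 3 (12%) and 3.69%. Genes with several windows count once, and a gene with more windows has more chances of a match. A match of letters is a description and does not show that a factor binds there.

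The C1qa level was 65.1, 58.4, 44.3 and 24.4 CPM in WT, 78.4, 53.2 and 58.0 in CD4KO, and 20.8, 22.2 and 22.6 in CD8KO. In TCRKO it was 30.4, 16.4 and 16.8 CPM, in Tie2Cre 15.5, 30.7 and 27.2, and in Tie2Cre_H2Abf 5.49, 51.5, 17.97 and 7.38. The CD8KO libraries all lay below the lowest WT library, whereas the other groups overlapped WT. The fitted log2 change of C1qa was -1.14 ± 0.59 (SE) in CD8KO and -1.18 ± 0.59 in TCRKO against WT, and neither passed by edgeR's quasi-likelihood test with Benjamini-Hochberg adjustment (adjusted p = 0.486 and 0.579). In CD4KO it was 0.39 ± 0.57, in Tie2Cre -0.97 ± 0.59, and -0.26 ± 0.57 in Tie2Cre_H2Abf against Tie2Cre. By CD4 status it was 0.02 ± 0.40.

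Relative to the core, C1q separated libraries of TCRKO hosts. The summed C1q level per 100 CPM of core was 13.5 in TCRKO_9765 and 14.0 in TCRKO_9767, the lowest of all 20 libraries, but 38.3 in TCRKO_9766. In WT it was 25.9, 26.6, 28.1 and 31.1, and in CD8KO 31.5, 23.2 and 34.8. The CD4KO values of 39.2, 40.8 and 46.7 and the Tie2Cre values of 42.8, 38.6 and 38.7 lay above every WT value, and Tie2Cre_H2Abf was at 28.9, 32.3, 47.8 and 45.2. TCRKO_9765 and TCRKO_9767 were also the TCRKO libraries with high core levels and low Mrc1, and had the highest Tyrobp levels after CD4KO_9768. The ratio divides by the core. The C1q sums themselves were 133 CPM in TCRKO_9765, 98.2 CPM in TCRKO_9767 and 118 CPM in TCRKO_9766. They ran from 193 to 275 CPM in CD4KO and from 76.0 to 130 CPM in Tie2Cre. Both groups thus overlapped WT (73.9 to 256 CPM), unlike in the ratio. How often ratios of other genes set these groups apart from WT was not computed.

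Mrc1 (chr2:14229392-14332057), the mannose receptor CD206, was a low-level gene, with a median of 0.90 CPM per kb. Its level was 14.2, 6.80, 0.821 and 14.4 CPM in WT and 1.75, 6.01 and 11.3 in CD4KO. In TCRKO it was 0.370, 8.91 and 0.227 CPM, that is 3 counts, 75 counts and 1 count. Tie2Cre_9504 had no Mrc1 count, which allows up to 0.378 CPM (3 counts), and the other libraries lay between 0.708 and 9.48 CPM. No group was apart from WT, and the fitted changes had wide errors: -1.52 ± 1.24 in TCRKO, -0.53 ± 1.195 in CD4KO, -0.77 ± 1.202 in CD8KO and -1.63 ± 1.26 in Tie2Cre against WT, and 0.29 ± 1.22 in Tie2Cre_H2Abf against Tie2Cre (edgeR adjusted p between 0.742 and 0.964). Without TCRKO_9766 the change in TCRKO was -4.83, and without TCRKO_9765 or TCRKO_9767 it was -0.99. Leaving out 1 library gave -1.23 (without CD4KO_9770) to -0.08 (without CD4KO_9768) in CD4KO, -1.40 (without CD8KO_9752) to -0.43 (without CD8KO_9753) in CD8KO and -2.29 (without Tie2Cre_9502) to -1.04 (without Tie2Cre_9504) in Tie2Cre. By CD4 status the fitted change of Mrc1 was -0.51 ± 0.68 (edgeR adjusted p = 0.927). Per 100 CPM of core Mrc1 was at most 3.04 (WT_9772), and its rho with the core was 0.28. With the endothelial sum its rho was 0.28 as well, and with the sum of 6 lymphatic endothelial genes 0.39. The source of Mrc1 RNA in these libraries was not tested. Cd163, a scavenger receptor for haemoglobin, had 24 counts in all, in 4 libraries.

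Arg1 (chr10:24915221-24927484), the arginase that competes with Nos2 for arginine, was near or below detection in each library. Its 18 counts fell in 8 libraries, at most 0.655 CPM in CD4KO_9768, and 16 of them in CD4-deficient hosts against 2 in CD4-competent hosts. The ratio of these summed counts, corrected for library size, was 8.46, with an exact Poisson 95% interval from 1.99 to 75.9 that covers counting error only. It rests on the 2 counts of the competent side, 1 each in Tie2Cre_9501 and Tie2Cre_9502. CD4KO had 9 of the counts and WT none. In the 12 libraries without a count, Arg1 was not detectable at this depth.

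Nos2 (chr11:78920787-78960254), the inducible nitric oxide synthase, was found in every library and did not follow the core (rho -0.02). Its level was 108, 18.9, 9.03 and 30.5 CPM in WT, 5.68, 21.2 and 73.1 in CD4KO, and 38.6, 35.1 and 18.6 in CD8KO. In TCRKO it was 49.1, 91.0 and 26.1 CPM, in Tie2Cre 0.756, 12.9 and 36.3, and in Tie2Cre_H2Abf 72.6, 24.7, 36.1 and 52.3. The WT libraries alone spanned 9.03 to 108 CPM, and no group was apart from WT or from Tie2Cre. Fitted changes were -0.33 ± 0.83 in CD4KO, -0.45 ± 0.83 in CD8KO, 0.40 ± 0.82 in TCRKO and -1.32 ± 0.86 in Tie2Cre against WT, and 1.46 ± 0.86 in Tie2Cre_H2Abf against Tie2Cre (edgeR adjusted p between 0.635 and 0.957). The sign against WT rested on single libraries: without WT_9748 it was 0.76 in CD4KO and 0.64 in CD8KO, without CD4KO_9768 it was 0.18 in CD4KO, and without TCRKO_9766 it was -0.16 in TCRKO. In Tie2Cre against WT the change was -0.23 without WT_9748, -0.77 without Tie2Cre_9501 and -2.55 without Tie2Cre_9504. In Tie2Cre_H2Abf against Tie2Cre it was 0.93 without Tie2Cre_9501 and 2.70 without Tie2Cre_9504. By CD4 status the fitted change of Nos2 was 0.54 ± 0.48 (edgeR adjusted p = 0.881).

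Per 100 CPM of core, Nos2 was 58.1 in Tie2Cre_H2Abf_9576, 47.9 in Tie2Cre_H2Abf_9589 and 29.5 in TCRKO_9766. The other 17 libraries lay between 0.426 and 17.7. The first 2 are the libraries with the least core RNA, and the ratio divides by it. Nos2 can also be made by endothelial and tumour cells, and the source of its RNA here was not tested. Its rho with the endothelial sum was 0.38.

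**Figure D3:**
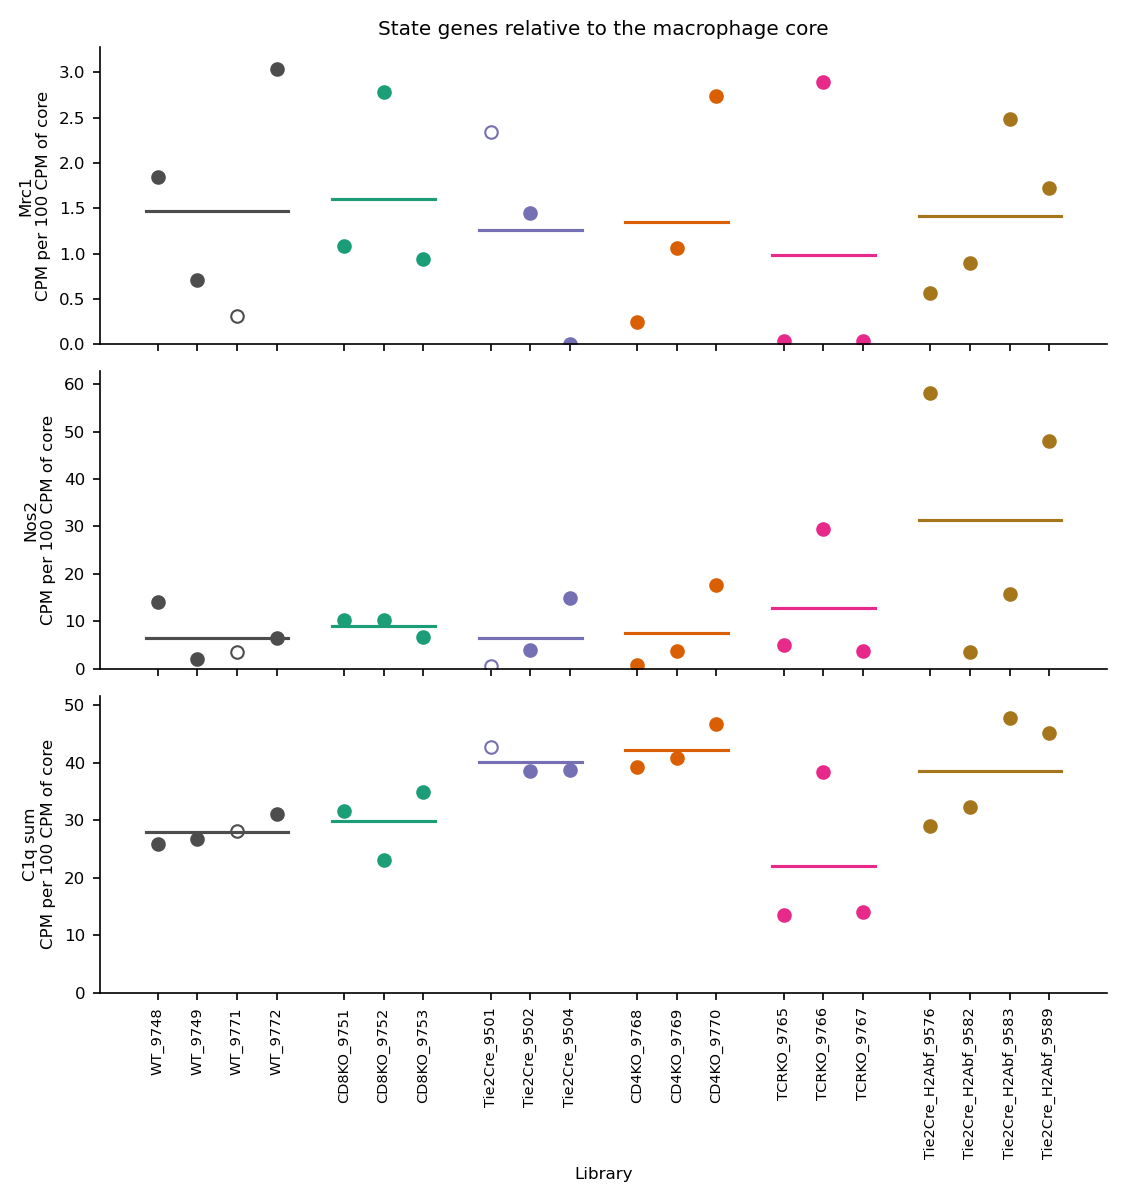
Mrc1, Nos2 and the sum of C1qa, C1qb and C1qc in CPM per 100 CPM of macrophage core, one point per library, with group means as lines and open points for WT_9771 and Tie2Cre_9501. Relative to the core, TCRKO_9765 and TCRKO_9767 are low for Mrc1 and C1q, and Tie2Cre_H2Abf_9576 and Tie2Cre_H2Abf_9589 are high for Nos2.

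Of the lipid and scavenger genes Apoe was the most abundant, at 9.99 to 169.7 CPM, and it followed the core (rho 0.85). Gpnmb, a membrane glycoprotein of phagocytes, ran from 3.91 CPM to 68.9 CPM, and the highest values were TCRKO_9767 (68.9) and TCRKO_9766 (64.0), with TCRKO_9765 at 23.2. Its fitted change in TCRKO against WT was 1.03 ± 0.63 and did not pass (edgeR adjusted p = 0.626). Trem2, a lipid receptor of macrophages, was at 43.8 CPM in Tie2Cre_9501 and at or below 13.1 CPM in each of the other libraries. In CPM Msr1, the class A scavenger receptor, was highest in WT_9771 at 61.5 and at most 27.3 elsewhere. That rank depends on the scaling. WT_9771, with a TMM factor of 0.613, had 75 Msr1 counts among 1031546 protein-coding counts. TCRKO_9765 had 219 among 1849749, a larger share. Spp1 (osteopontin) was at most 2.46 CPM and had no count in 5 libraries. Ms4a7, a tetraspan protein of macrophages, was at 2.61 to 32.1 CPM in all 20 libraries.

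Among members averaging 10 CPM or more, Fc receptor adaptors had the smallest p in CD4KO and TCRKO against WT and by CD4 status. Tyrobp (DAP12) and Fcer1g (the common Fc receptor gamma chain) are adaptors that carry the signalling motif for many activating receptors, also in neutrophils, NK cells and mast cells. Fcer1g (chr1:171229572-171234365) was at 27.1, 39.7, 21.3 and 31.2 CPM in WT and at 109, 57.7 and 103 CPM in TCRKO. In CD4KO it was 98.0, 51.3 and 26.0 CPM, and in Tie2Cre_H2Abf 33.3, 69.9, 16.7 and 13.5. The TCRKO libraries all lay above the WT libraries, whereas CD4KO overlapped WT. CD8KO was at 38.3, 18.5 and 30.2 CPM and Tie2Cre at 21.2, 19.99 and 34.8, close to WT.

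Tyrobp (chr7:30413760-30417585) was at 6.95, 12.5, 2.46 and 11.4 CPM in WT and at 62.4, 16.5 and 4.66 CPM in CD4KO. TCRKO libraries had 28.8, 11.6 and 45.2 CPM. In CD8KO it was 3.32, 6.06 and 11.49 CPM, in Tie2Cre 1.89, 4.14 and 4.16, and in Tie2Cre_H2Abf 3.01, 17.3, 2.67 and 2.171. CD4KO_9768 was by far the highest, and TCRKO_9766 lay within the WT range. Tyrobp and Fcer1g moved together over the libraries (rho 0.82).

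In TCRKO against WT the fitted log2 change was 1.58 ± 0.53 for Fcer1g (edgeR adjusted p = 0.443) and 1.74 ± 0.82 for Tyrobp (adjusted p = 0.573). In CD4KO against WT it was 0.96 ± 0.52 for Fcer1g, 1.70 ± 0.81 for Tyrobp and 1.00 ± 0.60 for Cd68, with adjusted p from 0.573 to 0.642. Between CD4-deficient and CD4-competent hosts it was 1.03 ± 0.33 for Fcer1g (adjusted p = 0.397), 1.57 ± 0.54 for Tyrobp (adjusted p = 0.457) and 0.75 ± 0.40 for Cd68 (adjusted p = 0.733). None passed the threshold of 0.05. The CD4 status fit takes the libraries of a class as replicates although each class pools different host groups, so its SE does not account for these groups. Within library numbers starting with 97 the status change was 1.33 for Fcer1g and 1.85 for Tyrobp, and within those starting with 95 it was 0.36 and 0.84. Without CD4KO_9768 the changes in CD4KO against WT were 0.32 for Tyrobp and 0.39 for Fcer1g.

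Both transcripts are short, with a median effective length of 247 bases for Tyrobp and 355 bases for Fcer1g. Over the same 27 members, rho between effective length and fitted change was -0.67 in CD4KO, -0.54 in CD8KO, -0.16 in TCRKO and -0.30 for CD4 status. Tyrobp per 100 CPM of core had a rho of 0.81 with the summed level of 79 ribosomal protein genes over 20 libraries, and Fcer1g one of 0.53. The neutrophil sum was also highest in CD4KO_9768 (94.3 CPM) and was 38.4, 6.89 and 33.4 CPM in TCRKO against 13.9, 37.6, 27.9 and 0.757 CPM in WT. The T and NK cell list stayed at or below 3.41 CPM in TCRKO and CD4KO. The 5 mast cell genes summed to 46.7, 45.9 and 57.4 CPM in CD4KO and 65.4, 54.5 and 30.01 CPM in TCRKO, against 41.2, 28.5, 34.5 and 29.2 CPM in WT. Nearly all of this was Kit, and the protease genes Cpa3 and Tpsb2 were at 0 in 13 and 15 libraries. The part of length, ribosomal protein RNA, neutrophils or mast cells in these differences was not tested.

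**Figure D4:**
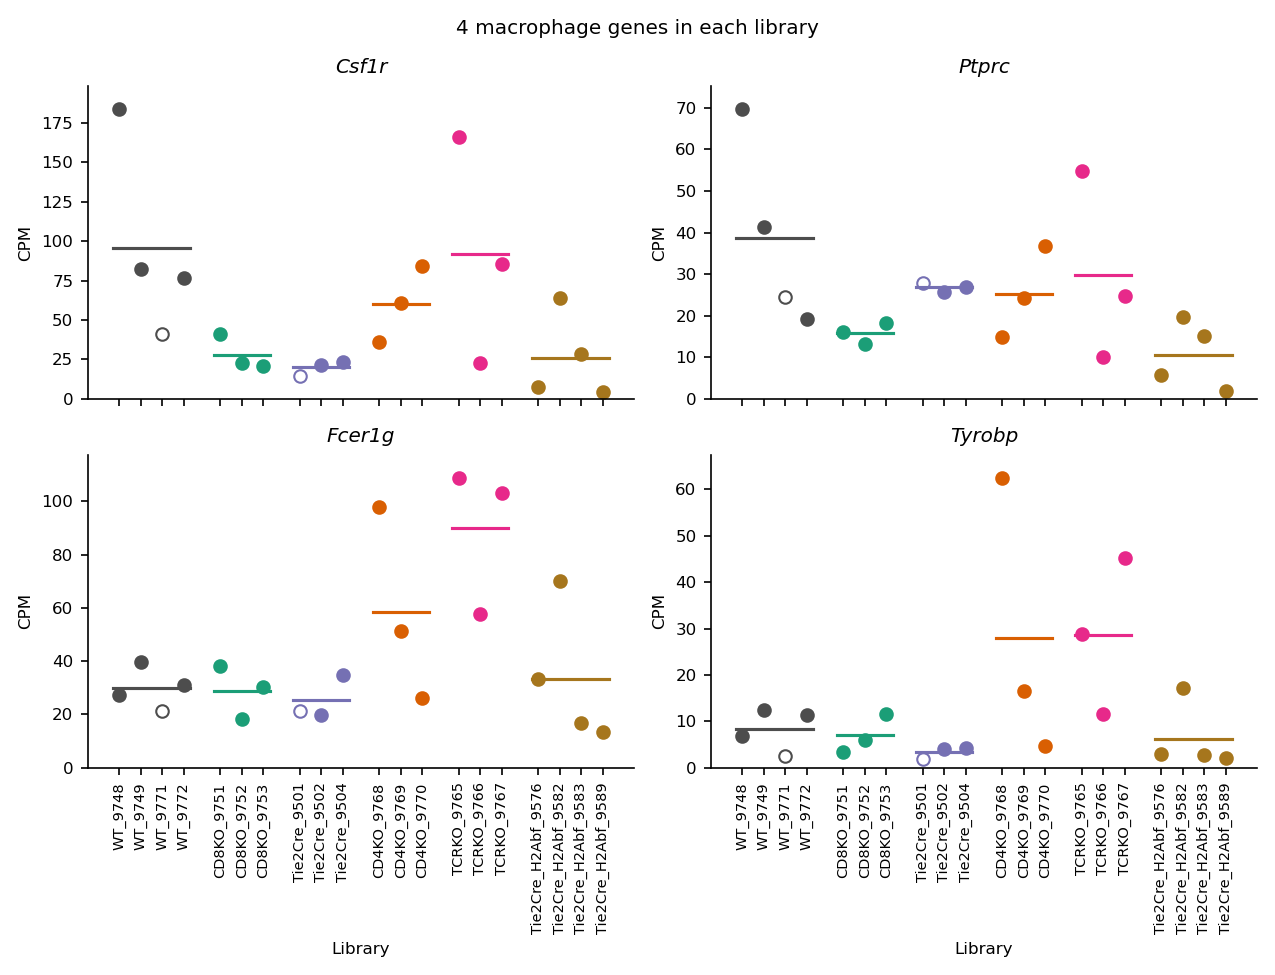
Levels in CPM of Csf1r, Ptprc, Fcer1g and Tyrobp, one point per library, with group means as lines and open points for WT_9771 and Tie2Cre_9501. Fcer1g is above all WT libraries in TCRKO, Csf1r is below all WT libraries in Tie2Cre, and Ptprc is below all Tie2Cre libraries in Tie2Cre_H2Abf.

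The Fc gamma receptors themselves did not stand out. Fcgr1, the high-affinity IgG receptor, was between 1.01 and 41.9 CPM, and Fcgr3, a low-affinity receptor, between 1.77 and 48.4 CPM. In TCRKO against WT, Fcgr3 had a fitted change of 0.00 and Fcgr1 one of -0.64.

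Over all members, no gene passed in any of the 6 comparisons with edgeR (adjusted p under 0.05), nor with DESeq2. The background was low as well. In TCRKO against WT 0.0269% of the 14875 genes passed with edgeR, in Tie2Cre_H2Abf against Tie2Cre 0.0202%, and 0.0% in the other comparisons. DESeq2 called 1.01% of its genes in CD4KO, 0.774% in CD8KO, 1.61% in TCRKO and 1.02% in Tie2Cre against WT, 0.547% in Tie2Cre_H2Abf against Tie2Cre and 0.303% by CD4 status. The smallest edgeR adjusted p of a member was 0.397, for Fcer1g by CD4 status. Another scaling (RLE factors) lowered the median change of all genes by over 0.1 in 4 of the 6 comparisons, from -0.18 to -0.37 in CD8KO and from -0.24 to -0.43 in Tie2Cre_H2Abf, so member medians are given beside that of all genes.

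In CD4KO against WT, 1 of 34 members, Tyrobp, was higher and 0 were lower at an unadjusted p under 0.05, where 4.03% of all genes were higher and 4.55% lower. The median fitted change of the members was -0.22, beside -0.08 for all genes tested. C1qa, C1qb and C1qc had fitted values of 0.22 to 0.64, all above 0, whereas 6 of the 7 lysosomal genes were below 0. Without WT_9771 and Tie2Cre_9501 the member median was -0.43 and that of all genes 0.11.

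In CD8KO against WT, 33 of 34 members had a fitted value below 0, including all 12 core genes, and the median was -0.58 beside -0.18 for all genes. At an unadjusted p under 0.05, 4 members were lower (Csf1r, C1qc, Msr1 and Ccr2) and 0 higher, beside 7.97% and 2.57% of all genes. Csf1r was at 41.1, 22.5 and 20.5 CPM in CD8KO and at 184, 82.2, 41.0 (WT_9771) and 76.7 CPM in WT, a fitted change of -1.78 ± 0.72 (edgeR adjusted p = 0.465). C1qc changed by -1.46 ± 0.60 and Msr1 by -1.86 ± 0.82 in the fit, at the same adjusted p. The highest WT value of Msr1 in CPM was that of WT_9771, without which the change was -0.89. Ptprc and C1qa were the 2 members whose CD8KO libraries all lay below WT, where 1.47% of all genes did so. The lower core in CPM turned into a higher one in TPM over all libraries, but not without WT_9771 and Tie2Cre_9501, as given above. In TPM CD8KO_9752 was at 2064, and CD8KO_9751 and CD8KO_9753 were at 476 and 290. Without WT_9771 and Tie2Cre_9501, 30 of 33 members were below 0, with a median of -0.74 beside 0.02 for all genes.

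In TCRKO against WT, 21 of 34 members were below 0, with a median of -0.14 beside -0.20. Fcer1g and Tyrobp were higher at an unadjusted p under 0.05 and Ccr2 was lower, beside 3.99% and 4.66% of all genes. Fcer1g was the 1 member whose TCRKO libraries all lay above WT, as did 5.57% of all genes. Ccr2, the receptor through which monocytes follow Ccl2, was at 0.493, 2.26 and 2.05 CPM in TCRKO and at 1.49, 23.4, 14.0 and 1.33 CPM in WT. Its fitted change was -2.63 ± 1.23 (edgeR adjusted p = 0.573), and WT_9749 and WT_9771 were the only WT libraries above the TCRKO range. The direction of the members rested on single libraries: without TCRKO_9766, 20 of 34 were above 0 (median 0.12), and without WT_9749, 19 were (median 0.06).

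In Tie2Cre against WT, 31 of 34 members were below 0 and the median was -1.03 beside 0.02 for all genes, the largest distance of the 6 comparisons. Csf1r was at 14.7, 21.7 and 23.6 CPM in Tie2Cre, below each WT library, with a fitted change of -2.26 ± 0.74 (edgeR adjusted p = 0.619). It was the 1 member whose Tie2Cre libraries all lay below WT, beside 1.34% of all genes. Mpeg1 (-1.49 ± 0.59) and Laptm5 (-1.57 ± 0.75) were lower at an unadjusted p under 0.05 as well, and Trem2 was higher. That makes 3 lower and 1 higher, beside 2.88% and 3.97% of all genes. The Trem2 value rests on Tie2Cre_9501, where 43.8 CPM stand against 0.244 and 6.93 CPM in the other Tie2Cre libraries. Without WT_9771 and Tie2Cre_9501, 30 of 33 members stayed below 0 in the fit, with a median of -0.94 beside 0.02.

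In Tie2Cre_H2Abf against Tie2Cre, 19 of 34 members were above 0 and the median was 0.09 beside -0.24. With RLE factors 16 were above 0 and the median was -0.08, and without WT_9771 and Tie2Cre_9501 it was -0.09. A single library carried the values above 0: without Tie2Cre_H2Abf_9582, 29 of 34 members were below 0, with a median of -0.86 beside -0.26 for all genes, and 8 had an unadjusted p under 0.05, as had 864 of 14677 genes in that fit. Ptprc was at 27.96, 25.7 and 26.8 CPM in Tie2Cre and at 5.84, 19.6, 15.1 and 1.88 CPM in Tie2Cre_H2Abf, so the groups did not overlap. The fitted change was -1.34 ± 0.64 (edgeR adjusted p = 0.576). Ptprc was the 1 member with all libraries below Tie2Cre, where 3.76% of all genes were. Ptprc, Trem2 and Ccr2 were lower and 0 members higher at an unadjusted p under 0.05, beside 5.86% and 2.69% of all genes. Msr1 (-0.94 ± 0.78) and Cd14 (-0.81 ± 0.71) had adjusted p of 0.755 and 0.769. Without Tie2Cre_H2Abf_9582 they were -1.55 and -1.34, and Msr1 was -0.53 without Tie2Cre_9502 and Cd14 -0.20 without Tie2Cre_9504. In the fit that left out the satellite-rich libraries, no member was under 0.05 unadjusted in this comparison.

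By CD4 status, 17 of the 34 members were above 0 and 17 below, with a median of -0.00 beside -0.11. Fcer1g and Tyrobp were higher and Ccr2 lower at an unadjusted p under 0.05, beside 1.9% and 5.37% of all genes. Within library numbers starting with 97, 21 of 33 members were above 0 with a median of 0.14, and within those starting with 95, 16 of 32 with a median of 0.05. The comparisons against WT share the 4 WT libraries and are not independent of each other.

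**Figure D5:**
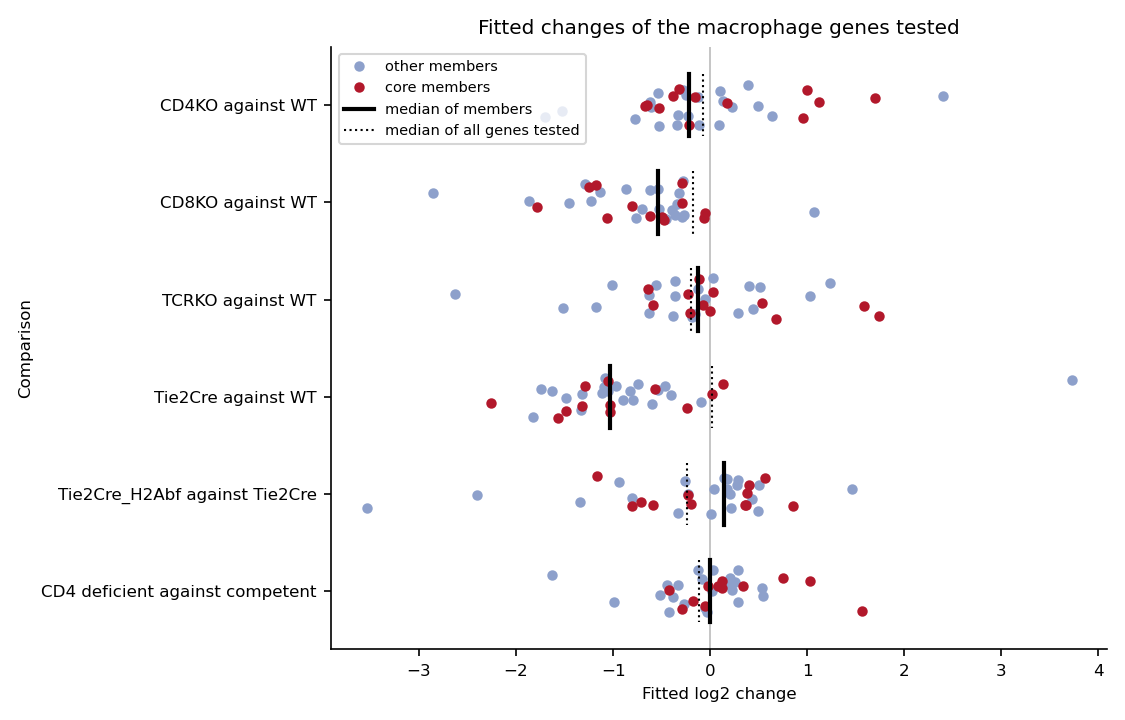
Fitted log2 changes of the macrophage genes tested in 6 comparisons, without Cd163 in the 4 comparisons where a group had 3 or fewer of its counts. Each point is a gene (red for core genes), solid bars are the median of the members shown and dotted bars that of all 14875 genes tested; in Tie2Cre against WT the member median is -1.04 and that of all genes 0.02.

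The gene that cells of Tie2Cre_H2Abf hosts can lose by design, in endothelium and blood-derived cells alike, is H2-Ab1, the MHC class II beta chain. It was at 25.3 to 96.2 CPM in Tie2Cre and at 0.712 to 6.37 CPM in Tie2Cre_H2Abf, and fell by 4.26 on the log2 scale (SE 0.59, edgeR adjusted p = 0.00214). Per 100 CPM of core it was 14.3 to 28.5 in Tie2Cre and 5.10, 0.169, 0.311 and 3.98 in Tie2Cre_H2Abf. The lowest of these was Tie2Cre_H2Abf_9582, the library of this group with the most core RNA. H2-Ab1 is also made by endothelial, dendritic and B cells, and its source was not tested. Over the 16 libraries of the other groups it had a rho of 0.61 with the core. Cd74, the invariant chain of MHC class II, had a mean of 639 ± 280 CPM in Tie2Cre_H2Abf and 209 ± 100 CPM in Tie2Cre (SD), with a fitted change of 1.61 ± 0.54 (adjusted p = 0.576). Cd74 was below WT in CD8KO (-2.19 ± 0.55, edgeR adjusted p = 0.465), TCRKO (-2.48 ± 0.56, adjusted p = 0.145) and Tie2Cre (-1.98 ± 0.55, adjusted p = 0.491), and none of these passed.

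A further 50 genes often used for macrophages were listed beside the members, of which 45 were tested, and the smallest edgeR adjusted p among them was 0.145 (Cd74 in TCRKO). At an unadjusted p under 0.05, 4 of the 45 were lower in TCRKO (4.66% of all genes were) and 5 in Tie2Cre against WT (2.88% of all genes), and 1 or 2, both directions together, in each other comparison. Of the 45, 38 were below 0 in CD8KO (median -0.82), 38 in Tie2Cre (median -1.03) and 29 in TCRKO (median -0.36) against WT. Of all 14875 genes, 8338 were below 0 in CD8KO (median -0.18), 7301 in Tie2Cre (median 0.02) and 8426 in TCRKO (median -0.20). Abca1, the cholesterol exporter, was at -1.43 ± 0.38 in TCRKO (edgeR adjusted p = 0.268). In CD4KO Mertk, a receptor for the uptake of dying cells, had a mean of 31.5 ± 18.6 CPM (SD) against 7.81 ± 6.57 CPM in WT (edgeR adjusted p = 0.573). In Tie2Cre_H2Abf against Tie2Cre the scavenger receptor Cd36, which endothelium also makes, was at -1.39 ± 0.47 (adjusted p = 0.576). In Tie2Cre against WT Syk, the kinase downstream of Fc receptors, was at -1.58 ± 0.58 and Itgb2 at -1.99 ± 0.88.

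The ligands that feed or attract macrophages did not follow the core (rho of the sum of 14 genes -0.13), and the smallest edgeR adjusted p of the 8 tested was 0.375. Cxcl12, a chemokine of stroma and endothelium, was the most abundant, with a mean of 251 ± 55.4 CPM (SD) in CD4KO and 116 ± 55.8 CPM in WT. Its fitted change was 1.11 ± 0.52 (adjusted p = 0.573). Cx3cl1, the ligand of Cx3cr1, was at -2.09 ± 0.61 in TCRKO (adjusted p = 0.375) and -1.27 ± 0.59 in CD8KO (adjusted p = 0.469) against WT. Csf1, the ligand of Csf1r, was at 1.89 to 39.8 CPM, and the other Csf1r ligand, Il34, was at 0 in 10 libraries. Tgfb1 had a fitted change of 1.13 ± 0.53 in Tie2Cre_H2Abf against Tie2Cre (adjusted p = 0.576), and the monocyte chemokine Ccl8 one of -3.56 ± 1.48 with 7 counts against 73. Csf2, Il13 and Ifng had no count in any library, and Il4 was at 0 in 18.

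Of the 2 recruitment receptors, Ccr2 was below 10 CPM in all but WT_9749 and WT_9771. Cx3cr1, the fractalkine receptor of resident and patrolling cells, was between 0 and 24.1 CPM and absent from CD4KO_9768 and Tie2Cre_H2Abf_9589. Its gene model overlaps 5 other genes, of which Wdr48 on the opposite strand (2596 counts), Csrnp1 (1825 counts) and Gorasp1 (943 counts) on the same strand each had more counts than Cx3cr1 (847), so its values are uncertain.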

How the data were processed

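Bulk RNA was sequenced from 20 samples after MATQ amplification and a Nextera XT library, per the labels' protocols. The authors deposited 1 table per library with RSEM expected counts (estimated, not normalized), TPM and an effective length (another quantity, in bases) per gene. Per the submitters' processing notes, bcl2fastq 2.17, STAR, RSEM 1.2.28 and DESeq2 were used with GRCm38. Of the expected counts 4.45% were not whole, and all were rounded. A GRCm38 annotation gave symbols for 46488 of 46983 identifiers.

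Members were tested among all genes with edgeR 4.0.16 in R 4.3.3 (quasi-likelihood, robust, TMM factors, filterByExpr, Benjamini-Hochberg, threshold 0.05), in a 6-group model or, for CD4 status, a 2-group model. The model for CD4 status takes the libraries of a class as replicates, although host backgrounds differ within a class. Changes are log2 fold changes ± SE. The submitters' DESeq2 results were not used here. Scripts were tested on simulated data.

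The members, lists and rules were chosen with earlier results of these data known. Fitted changes are named for members past the threshold, for Mrc1, Nos2 and C1qa, and for 3 further members, those of lowest p among members averaging 10 CPM or more. Of other lists, up to 4 genes of lowest p averaging 1 CPM or more are named. Members with an unadjusted p under 0.05 or groups apart are named beside their counts, and were picked after their values were seen. Where a group held 3 counts or fewer, no fitted fold is given. Alternatives were DESeq2 1.42.0, RLE factors, no filter, only the groups compared, the library number series, summed TPM, and leaving out libraries. One gene that this rule would name is not reported here.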

Additional observations from a re-analysis of the deposited data

Results flagged for a closer look

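In groups of 4 libraries (WT and Tie2Cre_H2Abf) the highest or lowest library was compared with the rest by Dixon's ratio, in 71 gene and group pairs. Of these, 9 stood apart. Chance alone sets a library apart in about 5% of such groups only if values are independent and normally distributed. Many of these genes moved together and some had few counts, so the 9 of 71 cannot be read against that rate. Tie2Cre_H2Abf_9582 was far above the other libraries of its group for Aif1 (8.30 CPM, others up to 1.60), Tyrobp (17.3 CPM, others up to 3.01), Msr1 (14.4 CPM, others up to 5.52) and Ms4a7 (25.4 CPM, others up to 6.23). WT_9771, the satellite-rich WT library, stood apart for Trem2 (5.74 CPM, others up to 0.379), for Cd163 (3.28 CPM, others at 0) and, as the lowest, for Apoe (31.2 CPM, others from 109.9). The remaining 2 were Cd163 at 1.30 CPM in Tie2Cre_H2Abf_9589, with the others at 0, and Spp1 at 1.07 CPM in Tie2Cre_H2Abf_9583, with the others up to 0.177. The Cd163, Trem2 and Spp1 values rest on few counts. In WT_9771 there were 4 for Cd163 and 7 for Trem2. Cd163 had 9 in Tie2Cre_H2Abf_9589 and Spp1 had 6 in Tie2Cre_H2Abf_9583.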

How the results depend on the processing

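The count of members called was 0 in all 6 comparisons under each of the 86 alternative fits. The core level moved by over 1 SD within groups in 4 of 91 alternatives, all in summed TPM against WT: to 1.17 in CD4KO, 0.77 in CD8KO, 0.95 in TCRKO and -0.21 in Tie2Cre. The share of protein-coding counts, and TPM without the satellite-rich libraries, were chosen after seeing the data. Of 516 refits of named members, 495 kept their direction and side of the threshold and 21 turned the sign of a change that had not passed. For C1qa by CD4 status (0.02) the value was -0.038 with DESeq2 and -0.035 with RLE factors, -0.28 within numbers starting with 95, and -0.192 to 0.190 on leaving out 1 library. Mrc1 by CD4 status (-0.51) was 0.25 within numbers starting with 95. Leaving out 1 library gave ranges of -1.63 to 0.76 for Nos2 in CD4KO, -0.78 to 0.64 in CD8KO and -0.16 to 1.49 in TCRKO against WT, and of -0.30 to 0.96 for Mrc1 and -1.26 to 0.057 for C1qa in Tie2Cre_H2Abf against Tie2Cre. Over all genes, edgeR and DESeq2 called 0 and 123 in CD4KO, 0 and 99 in CD8KO, 4 and 206 in TCRKO and 0 and 124 in Tie2Cre against WT, 3 and 70 in Tie2Cre_H2Abf against Tie2Cre, and 0 and 64 by CD4 status. The smallest adjusted p of a member under any alternative was 0.0619, for Tyrobp by CD4 status. No paired analysis was possible because each library number is used once. Depth limits Arg1, Cd163, Spp1 and Mrc1 most: 3 counts correspond to between 0.128 CPM (CD8KO_9752) and 2.46 CPM (WT_9771).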
